A study of Homo sapiens with 6 samples.

Results

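The 41 genes described here encode the machinery that starts an autophagosome, enlarges its membrane, attaches the small ubiquitin-like proteins ATG12 and LC3 to their targets, and delivers the closed vesicle to the lysosome. They were chosen by symbol, from what their proteins are known to do, with earlier results of these data known. All 41 were found among the 27216 rows of the deposited RNA-sequencing table. H1975, an established human non-small cell lung cancer line with mutant EGFR and labelled WT for genotype, was measured before treatment in 3 parental samples (0 h) and, after 72 h of the EGFR tyrosine kinase inhibitor osimertinib (Osi) at 1000 nM, in 3 adapted samples. The table calls the parental samples DMSO, with no word on whether or how long DMSO was given, so Osi and time in culture cannot be told apart. In the adapted samples apoptotic cells had been washed away before RNA extraction, and fewer cells of a kind and less RNA per cell cannot be told apart in such bulk samples. The labels do not say that the samples were separate cultures, so p-values measure only the spread between these samples. They also describe RNase R digestion, as for a library of circular RNA, while the study's methods name total RNA. Whether the values are ordinary mRNA levels is therefore not known, and this was not tested.

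Autophagy begins when nutrient and energy sensors act on the ULK1 kinase complex: mTORC1 holds it inactive and AMPK activates it. The ULK complex then recruits the class III phosphatidylinositol 3-kinase, whose lipid product PI3P draws in WIPI proteins and the lipid-transfer protein ATG2, and a ubiquitin-like cascade couples LC3 to the growing membrane. Cancer cells use the pathway to recycle proteins and organelles during stress, and its genes are also regulated after transcription, so mRNA levels are not a measure of autophagic flux.

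All 6 epithelial marker genes examined were present in every sample, at log2(FPKM + 1) values of 7.08 to 9.88, where FPKM is the number of fragments per unit of transcript length and of mapped fragments. Their summed FPKM was 3306.4 to 3334.5 in the parental samples and 2370.7 to 2507.5 in the adapted samples, and 4 of the 6 fell. The summed FPKM of 6 leukocyte markers was 75.0 to 77.5 and then 14.9 to 29.8, nearly all of it from CD68, while PTPRC and CD3E stayed under 0.1 in every sample. The 6 fibroblast markers summed to 3.04 to 3.17 and then 8.60 to 9.33 FPKM, with COL1A2 and PDGFRB under 0.1 throughout, and the 5 endothelial markers to no more than 3.50 FPKM in any sample, with CLDN5 under 0.1. Mitochondrially encoded genes took 8.07 to 8.66% of the summed linear values in the parental samples and 9.73 to 12.15% in the adapted samples. The part of any of these differences in the results for the autophagy genes was not tested. Replicates lay closer together in the parental group, with a median SD of 0.0576 on the log2 scale over all rows tested and 0.0493 over the 41 genes, than in the adapted group, with 0.129 and 0.083. Adapted replicate 1 was the adapted sample nearest to the parental mean for 25 of the 41 genes (61%), against 48% of all rows tested. The 41 genes together summed to 760.0 to 776.4 FPKM in the parental samples and to 865.9 to 962.9 FPKM in the adapted samples.

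A property of the table bears on many of these genes and is given before their values. In most rows the linear value, that is 2 to the power of the deposited value minus 1, is a number with 6 decimals in all 6 samples. In 147 of the 27216 rows (0.54%) the 3 values of 1 group are not on this grid while the 3 values of the other group are. Among the 41 autophagy genes this held for 15 (36.6%). In 9 of them, ATG101, ATG4C, MTOR, PIK3C3, RAB33B, RUBCN, ULK2, VAMP8 and WIPI1, the adapted values were off the grid, and subtraction of 0.65 on the log2 scale returned all 3 to it. In the other 6, ATG10, ATG12, ATG4A, PIK3R4, PRKAA1 and PRKAA2, the parental values were off the grid, and subtraction of 0.2 returned them. Of all rows, 35 had the first pattern and 25 the second, and a further 87 rows with a constant of 0.66 in the adapted samples held none of the 41 genes. Of the 246 member values, 201 lay within 0.001 of a unit of the sixth decimal, and the 45 others lay 0.0079 to 0.489 of a unit away. Values are given as deposited, and for the 15 genes also with the constant subtracted. How the constants arose was not tested, and subtraction is not taken to restore an earlier table.

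**Figure D1:**
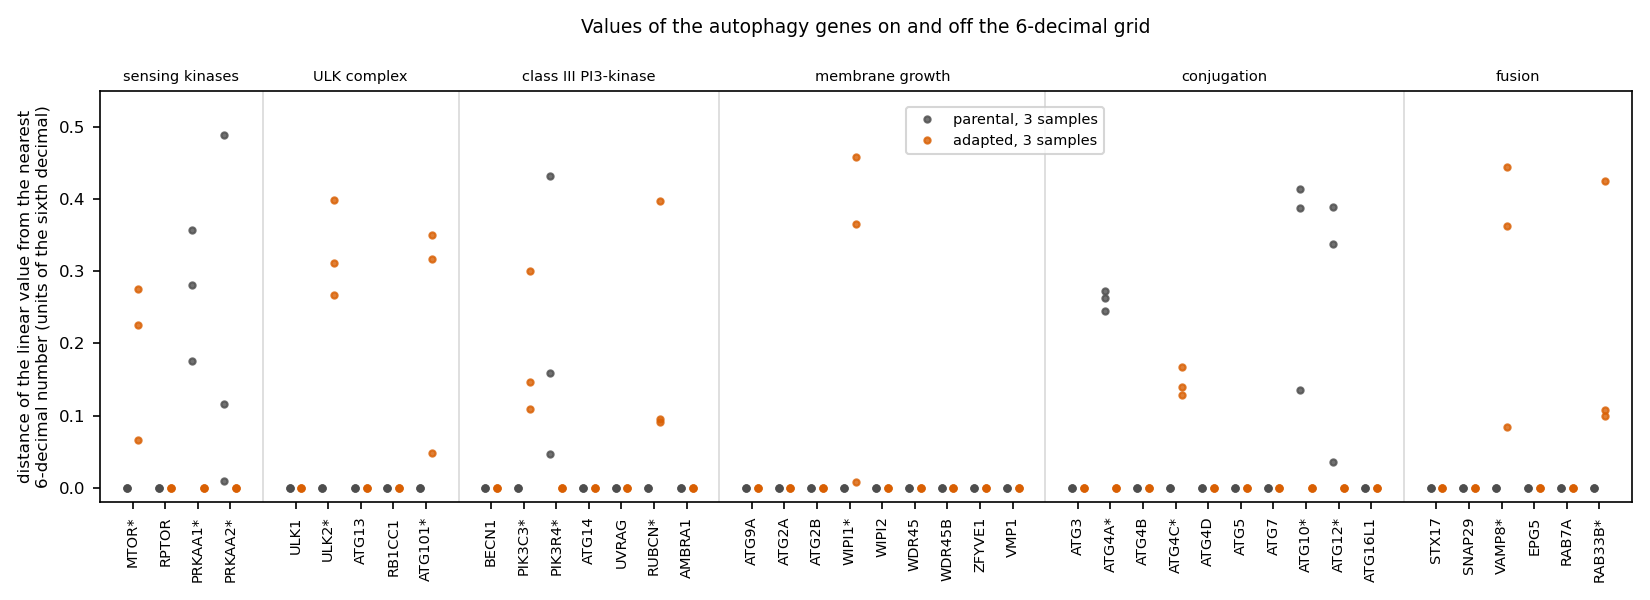
Distance of each of the 246 member values from the nearest 6-decimal linear value, in units of the sixth decimal, for the 41 genes in the 3 parental and 3 adapted samples. The 201 values on the grid lie below the tolerance of 0.001, and the 45 values off it form a separate group at 0.0079 to 0.489, 3 to a gene and always in 1 group of samples.

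All 41 genes passed the filter on low values (a mean log2 value of at least 1) and were compared between adapted and parental cells with limma, two-sided, with Benjamini-Hochberg adjustment over the 12656 rows tested and a threshold of 0.05. Over all rows, 30.7% were called higher and 26.2% lower in adapted cells, 56.9% in all. Of the 41 genes 19 rose (46.3%), 11 fell (26.8%) and 11 did not pass the test. Their median log2 fold change was 0.17, against 0.028 over all rows, with a range from -0.67 (PRKAA2) to 1.76 (WIPI1). In 32 of the 41 (78.0%) the parental and adapted samples did not overlap, against 66.3% of all rows. A change of at least 0.5 on the log2 scale that passed the test was found in 15 (36.6%), against 30% of all rows. These shares moved with the constants: after subtraction 15 genes were higher (36.6%), 8 lower (19.5%) and 18 not called, against 30.3% and 26% of all rows, and 7 (17.1%) passed with at least 0.5, against 29.4%. Groups then did not overlap in 26 of the 41 (63.4%), against 66% of all rows, and the median was 0.14. In the 26 genes whose values all lie on the grid, 10 rose (38.5%), 6 fell (23.1%) and 10 did not pass, with a median of 0.14. The 9 genes with a constant of 0.65 had all risen as deposited, by a median of 0.89, and 5 of them were called higher after subtraction, with a median of 0.24. Of the 6 genes with a constant of 0.2, 5 had fallen as deposited (median -0.30 over the 6), and 2 were called lower after subtraction (median -0.10). The share of the 41 genes called in either direction was thus 73.2% as deposited and 56.1% after subtraction, the latter next to 56.3% of all rows.

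**Figure D2:**
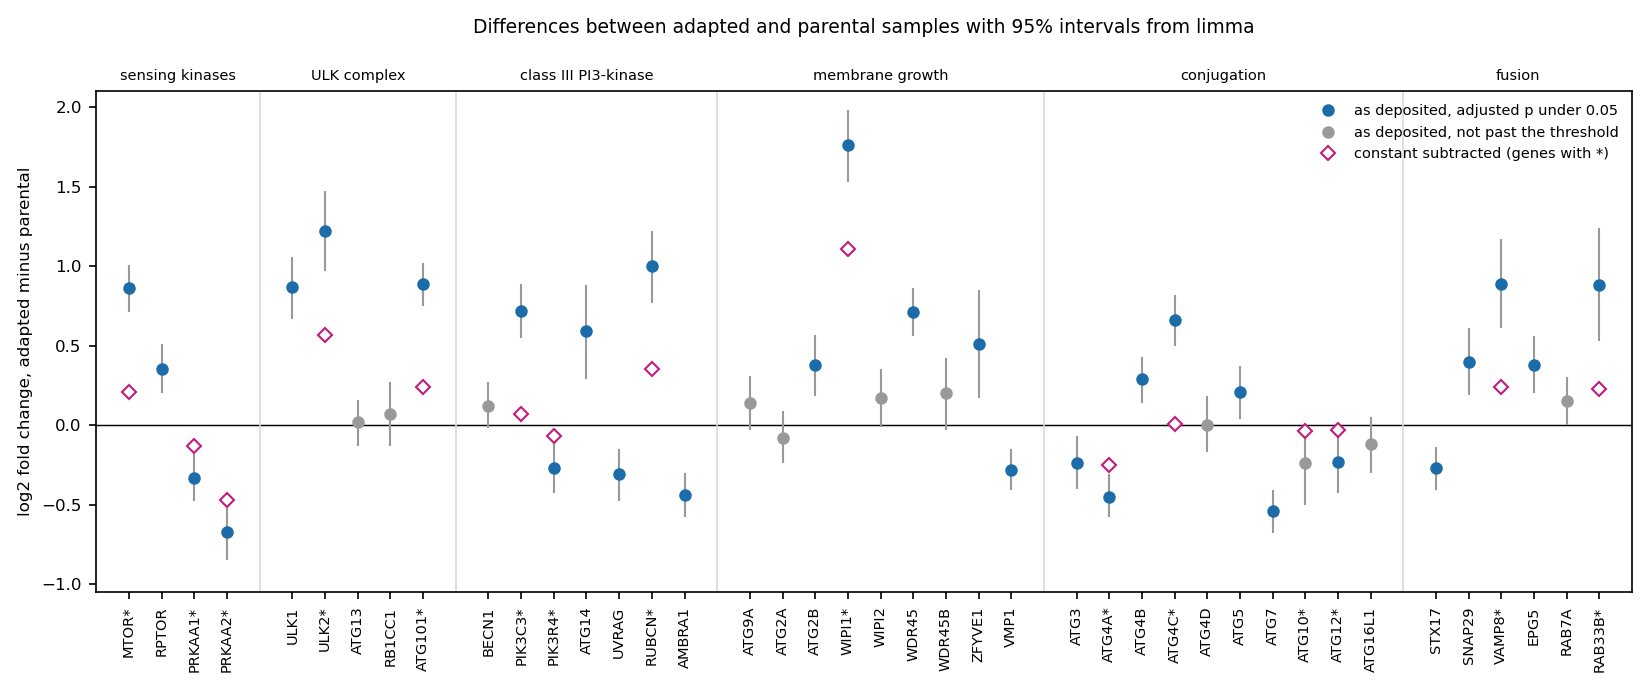
Log2 fold change (adapted minus parental) with its 95% confidence interval for each of the 41 genes, grouped by step, with blue points for changes that passed limma's test and grey points for those that did not. For the 15 genes off the grid the value after subtraction of the constant is drawn as an open diamond, and these lie nearer to 0 than the deposited values in all 15.

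Among the kinases that sense nutrients and energy, MTOR rose, its mTORC1 partner RPTOR rose, and both catalytic subunits of AMPK fell. After subtraction 2 of these 4 genes were higher, 1 lower and 1 not called. Over all rows 56.9% were called as deposited and 56.3% after subtraction. MTOR, the kinase of mTORC1, was at 3.80, 3.80 and 3.71 log2(FPKM + 1) in the parental samples and 4.55, 4.67 and 4.67 in the adapted samples. The groups lay well apart, with a log2 fold change of 0.86 ± 0.06 (SE, n = 3 per group; limma adjusted p = 5e-05). With 0.65 subtracted the adapted values became 3.90, 4.02 and 4.02, still above every parental sample, and the fold change became 0.21 (adjusted p = 0.0264). RPTOR, the scaffold that presents substrates to MTOR, has all values on the grid and went from 3.21, 3.26 and 3.22 to 3.49, 3.62 and 3.65. Each adapted sample exceeded each parental one, by 0.35 ± 0.07 on average (adjusted p = 0.00341). PRKAA1, the AMPK alpha1 subunit, went from 5.15, 5.16 and 5.02 to 4.74, 4.80 and 4.79, a change of -0.33 ± 0.06 (adjusted p = 0.00335) with no overlap. After 0.2 was subtracted from its parental values the change was -0.13 and did not pass the test (adjusted p = 0.113), although the groups still did not overlap. PRKAA2, the alpha2 subunit, was the member that fell most as deposited, from 2.77, 2.83 and 2.69 to 2.19, 2.08 and 2.03 (-0.67 ± 0.08, adjusted p = 0.000371). It remained lower after subtraction, with a change of -0.47 (adjusted p = 0.00213), and ATG7 was then the member that fell most.

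In the ULK complex, the kinase complex at the start of the pathway, ULK1, ULK2 and ATG101 rose and the scaffolds ATG13 and RB1CC1 did not pass the test. The same 3 of 5 genes were higher after subtraction. Over all rows 30.7% were higher as deposited and 30.3% after subtraction. ULK1, which lies at chr12:131894651-131923167 on the plus strand of hg38, was at 3.50, 3.49 and 3.41 in the parental samples and 4.17, 4.40 and 4.42 in the adapted samples. All of its values lie on the grid, the groups did not overlap, and the change of 0.87 ± 0.08 (adjusted p = 0.000142) was the highest of the 26 genes on the grid. In FPKM this was 10.1 against 19.2, a ratio of means of 1.91. ULK2, its paralog, was the least abundant of the 41 genes in parental cells, with 0.88, 0.68 and 0.84, and was at 1.86, 2.13 and 2.07 in adapted cells (1.22 ± 0.11, adjusted p = 9.36e-05). For so low a gene the change depends on the added 1: it was 1.91 with 0.1 added in place of 1, and mean FPKM went from 0.745 to 3.07, a ratio of 4.12, or to 1.59 and a ratio of 2.14 after subtraction. With the constant subtracted its adapted values were 1.21, 1.48 and 1.42, which did not overlap with the parental ones, and the change of 0.57 passed the test (adjusted p = 0.00356). ATG101, a HORMA-domain protein that stabilizes ATG13, went from 4.54, 4.52 and 4.54 to 5.39, 5.49 and 5.39 (0.89 ± 0.06, adjusted p = 2.54e-05), and to 4.74, 4.84 and 4.74 after subtraction, a change of 0.24 (adjusted p = 0.00996). Its parental samples were almost identical and stayed below the adapted ones on either reading. ATG13, the subunit that links ULK1 to the rest, overlapped between groups, with a change of 0.02 (95% confidence interval -0.13 to 0.16, adjusted p = 0.825). RB1CC1 (FIP200), the large scaffold, also overlapped, with 0.07 (-0.13 to 0.27, adjusted p = 0.506).

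The class III PI3-kinase complexes and their regulators were mixed, with 3 of 7 higher, 3 lower and 1 not called as deposited. After subtraction 2 were higher, 2 lower and 3 not called. Called rows made up 56.9% of all rows tested as deposited and 56.3% after subtraction. PIK3C3 (VPS34), the lipid kinase itself, was at 2.28, 2.34 and 2.32 in parental and 3.06, 3.09 and 2.94 in adapted samples (0.72 ± 0.07, adjusted p = 0.000178). Its adapted values became 2.41, 2.44 and 2.29 with 0.65 subtracted, so that the groups overlapped and the change of 0.07 did not pass (adjusted p = 0.469). PIK3R4 (VPS15), its regulatory subunit, fell by 0.27 on the log2 scale as deposited (adjusted p = 0.0101), and the groups overlapped after subtraction (-0.07, adjusted p = 0.373). The calls of both core subunits were thus lost with the constants. BECN1 (beclin 1), the subunit shared by all forms of the complex, lay on the grid at 5.54, 5.57 and 5.47 and then 5.68, 5.69 and 5.57. Its groups did not overlap, although by less than the printed digits show, and the change of 0.12 (95% confidence interval -0.02 to 0.27) did not pass the test (adjusted p = 0.123).

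The 2 alternative partners of beclin 1 moved in opposite directions, with both on the grid. ATG14, which directs the kinase to the site where autophagosomes form, was at 3.24, 3.32 and 3.30 in parental samples and 3.58, 4.07 and 3.98 in adapted samples (0.59 ± 0.13, adjusted p = 0.00583). Adapted replicate 1 was the lowest of the adapted samples but still above the parental ones. UVRAG, which takes ATG14's place in the endosomal form of the complex, went from 3.40, 3.35 and 3.29 to 3.0, 3.11 and 2.98 (-0.31 ± 0.07, adjusted p = 0.00717), with no overlap. RUBCN (rubicon), an inhibitor of the UVRAG complex, went from 3.11, 3.03 and 3.10 to 3.88, 4.17 and 4.18 (1.0 ± 0.09, adjusted p = 0.000136). After subtraction its adapted values were 3.23, 3.52 and 3.53, still above the parental group, with a change of 0.35 (adjusted p = 0.0176). AMBRA1, an adaptor that brings beclin 1 and ULK1 together, was at 3.75, 3.67 and 3.72 and then 3.23, 3.29 and 3.30, a fall of a gene on the grid (-0.44 ± 0.06, adjusted p = 0.000758).

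The promoter windows of ATG14, SNAP29 and ATG3 are shown because they were the only members, of 34 matched to a RefSeq promoter (GRCh38.p14, 40 windows of 300 bases, since 6 genes have 2 starts), whose windows hold the palindrome CACGTG, the core of the motif read by the MiT/TFE factors that drive lysosomal and autophagy genes and by other bHLH factors. Each line runs 5′ to 3′ on the gene's strand, from 200 bases before the start of transcription to 20 bases after it, and the capitals mark CACGTG. The windows are chr14:55411811-55412030 on the minus strand for ATG14, chr22:20858807-20859026 on the plus strand for SNAP29, and chr3:112561943-112562162 on the minus strand for ATG3.
ATG14: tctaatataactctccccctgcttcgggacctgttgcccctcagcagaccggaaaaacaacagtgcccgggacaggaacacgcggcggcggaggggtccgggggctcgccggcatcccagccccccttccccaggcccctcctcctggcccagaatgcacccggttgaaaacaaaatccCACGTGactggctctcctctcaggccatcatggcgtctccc
SNAP29: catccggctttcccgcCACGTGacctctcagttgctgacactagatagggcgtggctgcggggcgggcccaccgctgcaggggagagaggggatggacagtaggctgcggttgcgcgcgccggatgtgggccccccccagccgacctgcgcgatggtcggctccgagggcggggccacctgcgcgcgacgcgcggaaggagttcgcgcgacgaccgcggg
ATG3: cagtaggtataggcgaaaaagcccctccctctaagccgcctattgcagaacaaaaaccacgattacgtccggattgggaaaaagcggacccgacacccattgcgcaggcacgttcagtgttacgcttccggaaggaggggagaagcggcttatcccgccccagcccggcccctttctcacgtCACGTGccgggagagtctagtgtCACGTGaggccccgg
The motif begins at position -21 from the start in ATG14 and at position -184 in SNAP29, both of which rose. In ATG3, which fell, it begins at positions -18 and 6. CACGTG was found, on either strand, in 3 of the 40 member windows (7.5%) and in 7.26% of all 35116 windows. The longer form TCACGTG, which contains it, was in the same 3 windows (7.5%) and in 3.71% of all. TCATGTG was in 2 member windows (5%, ATG101 and WIPI2) against 2.92%, the forkhead motif GTAAACA in 1 (2.5%, WDR45) against 3.42%, and the AP-1 motif TGANTCA in 2 (5%, WDR45 and ZFYVE1) against 7.71%. These matches describe letters in a window and not sites of binding.

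In the step of membrane growth, where lipid is brought to the expanding membrane, WIPI1, WDR45, ATG2B and ZFYVE1 rose, VMP1 fell, and ATG9A, ATG2A, WIPI2 and WDR45B did not pass the test. Of the 9 genes 4 were thus higher, 1 lower and 4 not called, as deposited and after subtraction. The share called over all rows was 56.9% and then 56.3%. WIPI1, a PI3P-binding propeller protein on nascent autophagosomes, showed the largest change of the 41 genes in log2(FPKM + 1), with 2.25, 2.08 and 2.17 in the parental samples and 3.75, 3.97 and 4.05 in the adapted samples (1.76 ± 0.10, adjusted p = 1.29e-05). With 0.65 subtracted the adapted values were 3.10, 3.32 and 3.40, far above every parental sample, and the change of 1.11 (adjusted p = 0.000104) was still the largest of the 41 on this scale. Its mean FPKM went from 3.50 to 14.2, a ratio of 4.07 that is next to the 4.12 of ULK2, or to 8.71 and a ratio of 2.49 after subtraction. WIPI1 lies at chr17:68420948-68457513 on the minus strand of hg38, and 28.1% of its exonic bases are shared with ARSG or AC007780.1 in GENCODE 29. Whether the counting used strand is not stated, so reads of these genes could have been counted together. WDR45 (WIPI4), the partner of ATG2 proteins, lies on the grid and went from 4.59, 4.74 and 4.62 to 5.31, 5.41 and 5.34. Its groups were clearly apart (0.71 ± 0.06, adjusted p = 0.000115), and 13.9% of its exonic bases are shared, with PRAF2.

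The other propeller proteins changed less. WIPI2, which recruits ATG16L1, overlapped between groups (0.17, 95% confidence interval -0.01 to 0.35, adjusted p = 0.0968), as did WDR45B (0.20, -0.03 to 0.42, adjusted p = 0.115). The lipid channel ATG2B went from 2.31, 2.33 and 2.23 to 2.54, 2.76 and 2.71 (0.38 ± 0.08, adjusted p = 0.00652), with no overlap. Its paralog ATG2A overlapped, with a change of -0.08 (-0.24 to 0.09, adjusted p = 0.377). ATG9A, the scramblase carried on seed vesicles, changed by 0.14 (-0.03 to 0.31, adjusted p = 0.135), and 38.8% of its exonic bases are shared with other genes. ZFYVE1 (DFCP1), a marker of the omegasome, was at 2.77, 2.72 and 2.77 and then 2.90, 3.44 and 3.43, so that adapted replicate 1 lay just above the parental samples and the other 2 well above. Its change of 0.51 ± 0.15 (adjusted p = 0.02) no longer passed when any 1 sample other than adapted replicate 1 was left out (adjusted p = 0.0541 to 0.0689), and became 0.68 (adjusted p = 5.22e-05) without adapted replicate 1. VMP1, a scramblase of the endoplasmic reticulum, was at 5.62, 5.67 and 5.67 and then 5.33, 5.40 and 5.38 (-0.28 ± 0.05, adjusted p = 0.00368), lower in every adapted sample.

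**Figure D3:**
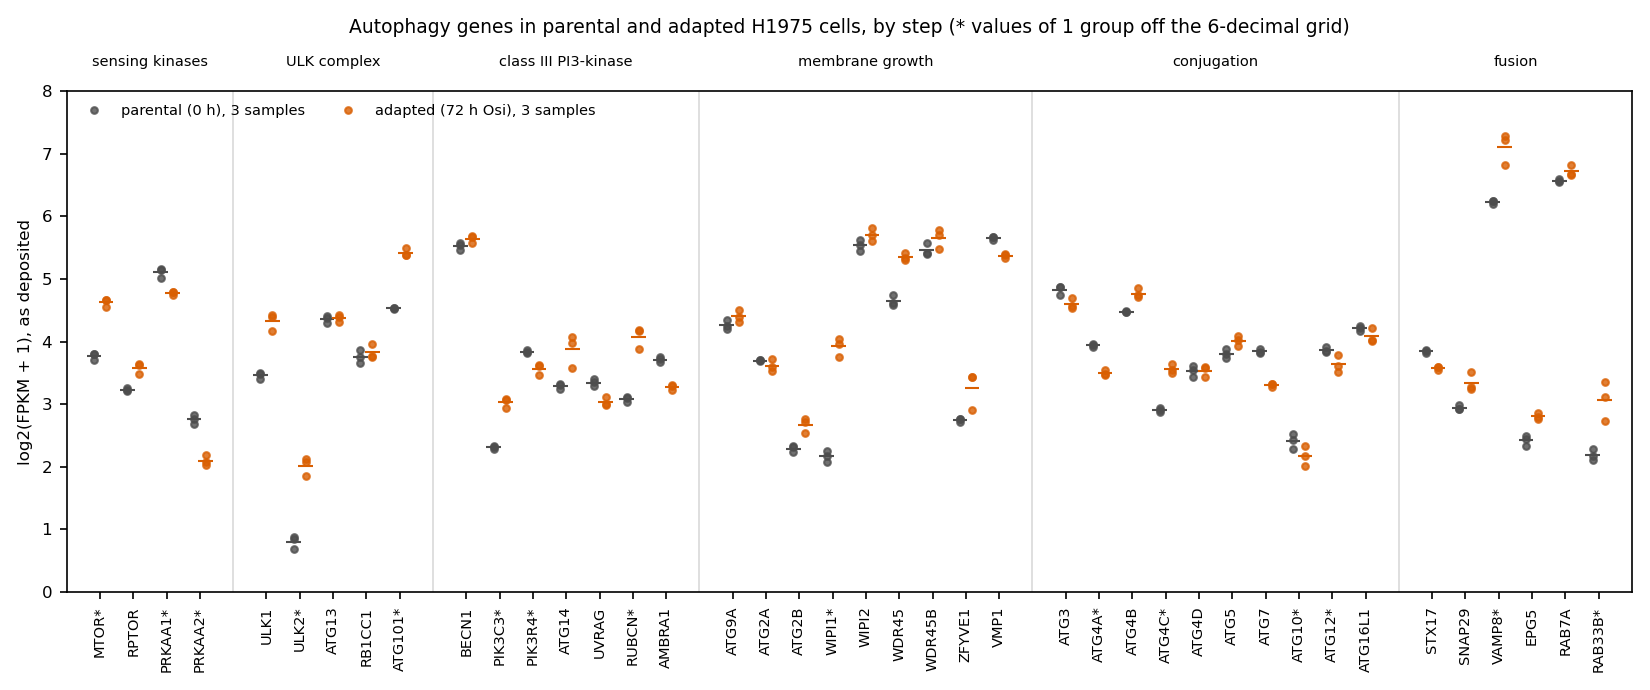
Deposited log2(FPKM + 1) values of the 41 genes in the 3 parental and 3 adapted samples, by step, with bars for group means and asterisks on the 15 genes off the grid. WIPI1 moves from 2.08 to 2.25 in parental to 3.75 to 4.05 in adapted samples, ULK1 from 3.41 to 3.50 to 4.17 to 4.42, and ATG7 from 3.82 to 3.89 down to 3.28 to 3.33.

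The conjugation step was the only one of the 6 steps with a negative median log2 fold change as deposited (-0.18) and after subtraction (-0.04). This did not hold for genes on the grid alone, where the median was -0.06 here and -0.09 in the class III PI3-kinase step. Of its 10 genes 3 rose, 4 fell and 3 did not pass as deposited, and 2 were higher, 3 lower and 5 not called after subtraction. Over all rows 30.7% were higher and 26.2% lower as deposited, and 30.3% and 26% after subtraction. ATG7, the E1-like enzyme that activates both ATG12 and LC3, was at 3.84, 3.82 and 3.89 in parental and 3.33, 3.28 and 3.32 in adapted samples. It lies on the grid, its groups were far apart relative to their spread, and its change of -0.54 ± 0.06 (adjusted p = 0.000241) was the largest fall among the genes on the grid. ATG7 shares 18.1% of its exonic bases with VGLL4. ATG3, the E2-like enzyme for LC3, went from 4.88, 4.74 and 4.88 to 4.53, 4.57 and 4.69 (-0.24 ± 0.07, adjusted p = 0.0243), and lost its call when parental replicate 1, parental replicate 3 or adapted replicate 2 was left out (adjusted p = 0.0646 to 0.0925). ATG10, the E2-like enzyme for ATG12, overlapped between groups and did not pass as deposited (-0.24, adjusted p = 0.0872) or after subtraction (-0.04, adjusted p = 0.748). ATG12, the ubiquitin-like protein joined to ATG5, was called lower as deposited (-0.23, adjusted p = 0.0468) but not after subtraction (-0.03, adjusted p = 0.765), nor when any 1 sample other than adapted replicate 3 was left out (adjusted p = 0.0665 to 0.143). ATG5, its acceptor, was at 3.88, 3.80 and 3.74 and then 3.93, 4.09 and 4.03. The rise of 0.21 (adjusted p = 0.037) lost its call when any 1 sample other than adapted replicate 1 was left out (adjusted p = 0.0561 to 0.135). ATG16L1, which positions the ATG12-ATG5 conjugate on the membrane, overlapped between groups (-0.12, 95% confidence interval -0.30 to 0.05, adjusted p = 0.188).

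The 4 ATG4 proteases, which trim LC3 and its relatives before conjugation and release them afterwards, did not move together. ATG4A fell from 3.97, 3.91 and 3.94 to 3.48, 3.46 and 3.54 (-0.45 ± 0.06, adjusted p = 0.000597), and after subtraction of 0.2 from its parental values it remained lower without overlap (-0.25, adjusted p = 0.00984). ATG4B, the most abundant of the 4 in FPKM and on the grid, rose from 4.49, 4.48 and 4.47 to 4.85, 4.71 and 4.74 (0.29 ± 0.06, adjusted p = 0.00581). ATG4C was at 2.94, 2.91 and 2.88 and then 3.50, 3.55 and 3.65 as deposited (0.66 ± 0.07, adjusted p = 0.000187). With 0.65 subtracted its adapted values of 2.85, 2.90 and 3.0 lay among the parental ones, with a change of 0.01 (adjusted p = 0.928). ATG4D overlapped between groups, with a change near 0 (95% confidence interval -0.17 to 0.18, adjusted p = 0.965).

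Of the 6 genes of the fusion step, in which the closed autophagosome joins the late endosome or lysosome, 4 rose and 1 fell as deposited. After subtraction 2 were higher, 1 lower and 3 not called. The share called over all rows was 56.9% as deposited and 56.3% after subtraction. STX17, the SNARE of the autophagosome, was at 3.87, 3.82 and 3.85 and then 3.59, 3.60 and 3.54 (-0.27 ± 0.06, adjusted p = 0.00523), while SNAP29, the SNARE it binds, was at 2.93, 2.98 and 2.93 and then 3.24, 3.28 and 3.52 (0.40 ± 0.09, adjusted p = 0.00678). Both are on the grid, and neither overlapped between groups. VAMP8, the lysosomal SNARE that completes this set, was at 6.24, 6.20 and 6.24 and then 6.83, 7.29 and 7.22 as deposited (0.89 ± 0.12, adjusted p = 0.000632). After subtraction adapted replicate 1, at 6.18, lay below the parental samples and the others, at 6.64 and 6.57, above them, and the change of 0.24 did not pass (adjusted p = 0.119). EPG5, a tether that binds RAB7A and LC3, went from 2.45, 2.50 and 2.33 to 2.76, 2.86 and 2.80 (0.38 ± 0.08, adjusted p = 0.0043). RAB7A, the late-endosome GTPase and the most abundant of the 41 genes in parental cells at 94.1 FPKM, did not overlap between groups, yet its change of 0.15 did not pass the test (adjusted p = 0.0858). RAB33B, a Golgi GTPase that binds ATG16L1, rose by 0.88 as deposited (adjusted p = 0.00217), and its groups overlapped after subtraction (0.23, adjusted p = 0.23).

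Where a step can use either of several paralogs, their levels were set against each other as shares of FPKM, a scale per transcript length. The log2 ratio of FPKM + 1 of 8 paralog pairs, that is the difference of their deposited values in a sample, was compared between groups with a two-sided exact permutation test, adjusted over the 8. As deposited no pair overlapped between groups, and each gave an exact permutation p = 0.1 (adjusted 0.1). This is the smallest p that 3 against 3 samples allow, so none could pass 0.05. Among single rows 66.3% did not overlap, and other gene pairs were not examined. PRKAA1 made up 85.2 ± 0.238% (SD, n = 3) of the FPKM of the AMPK catalytic subunits in parental cells and 88.9 ± 0.947% in adapted cells, as their sum went from 39.3 to 29.7 FPKM (from 34.0 after subtraction). ATG2B made up 24.6 ± 0.965% of the ATG2 total and then 32.3 ± 3.66%, with a sum that stayed at 15.8 and 16.7 FPKM. The log2 ratio of FPKM + 1 of ATG2A to ATG2B changed by -0.45, and by -0.54 with nothing added to the FPKM. WIPI1 went from 3.01 ± 0.267% to 9.16 ± 0.421% of the FPKM of the 4 propeller proteins (5.81 ± 0.301% after subtraction), and its log2 ratio of FPKM + 1 to WIPI2 changed by 1.59 (0.94 after subtraction). WDR45 went from 20.7 to 25.8% of the same total, and its log2 ratio to WDR45B changed by 0.51. WIPI2 and WDR45B, which did not pass the test, remained the most abundant of the 4 on this scale.

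For ULK1 and ULK2 the comparison depends on both the constants and the added 1. ULK1 made up 93.1 ± 1.12% of their FPKM in parental cells and 86.3 ± 0.518% in adapted cells as deposited, and the log2 ratio of FPKM + 1 changed by -0.35, or by -1.12 with nothing added. After subtraction the adapted share was 92.4 ± 0.485%, which overlapped with the parental one. The log2 ratio then changed by -0.17 with nothing added, with overlap between groups (exact permutation p = 0.5), and by 0.30 with the 1 added, so no direction is given for this pair after subtraction. The summed FPKM of both kinases went from 10.8 to 22.3, or to 20.8 after subtraction, most of it from ULK1. For ATG4C and ATG4B the direction turned with the constants on either scale: the log2 ratio changed by 0.37 as deposited (0.44 with nothing added) and by -0.28 after subtraction (-0.29). Within the ATG4 family the share of ATG4A went from 27.2 to 17.7% (24.3 to 19.1% after subtraction) and that of ATG4B from 40.4 to 45.2% (42.0 to 48.9%). The log2 ratio of ATG4A to ATG4B changed by -0.73 (-0.53 after subtraction) and that of ATG4D to ATG4B by -0.28.

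**Figure D4:**
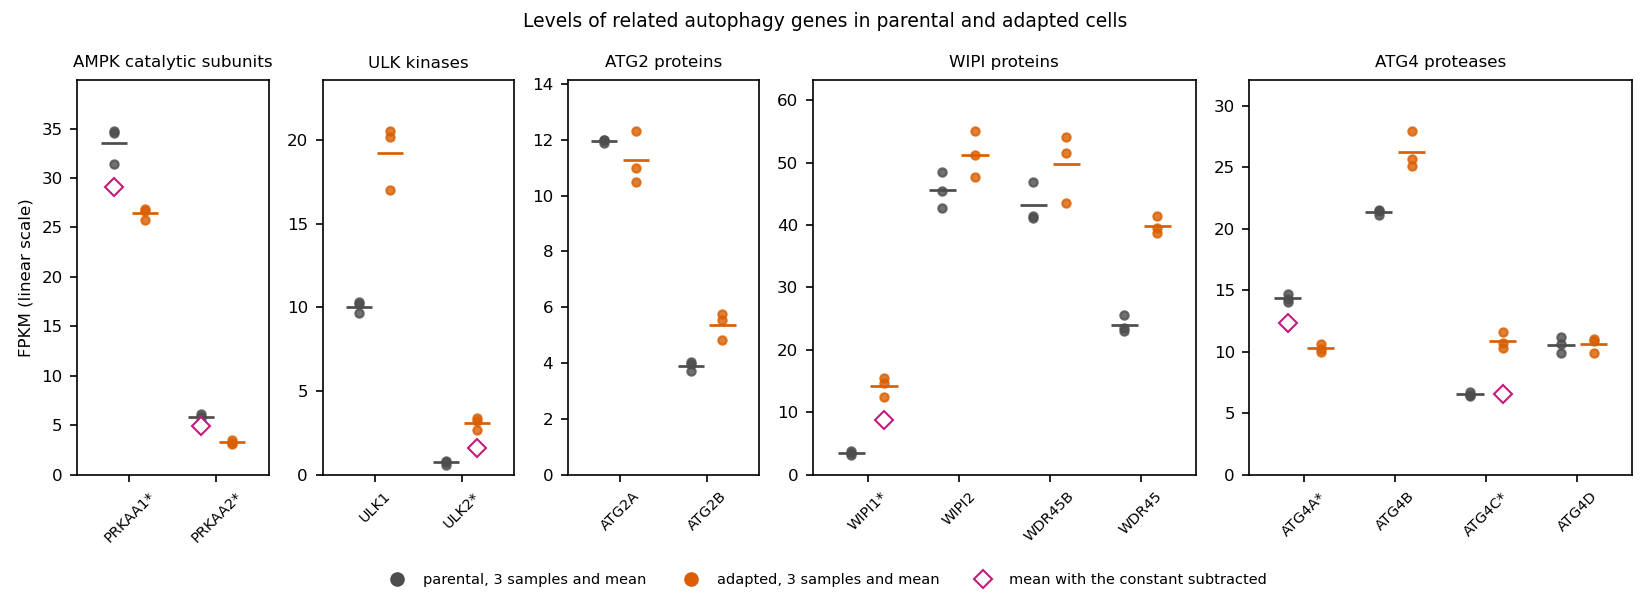
FPKM of the paralogs of the AMPK, ULK, ATG2, WIPI and ATG4 families in the 3 parental and 3 adapted samples, each family on an axis of its own from 0, with bars for group means and open diamonds for the mean after subtraction of the constant. ULK1 lies far above ULK2 in both groups, at 10.1 and 19.2 FPKM, and WIPI1 moves from 3.50 to 14.2 FPKM, or to 8.71 after subtraction.

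The signals that feed the pathway were followed in 32 regulators of mTORC1 and AMPK, of which 30 passed the filter. Of these 16 rose, 3 fell and 11 did not pass, so that 63.3% were called against 56.9% of all rows, with a median log2 fold change of 0.42 against 0.028. After subtraction 56.7% were called, against 56.3% of all rows: 14 were higher, 3 lower and 13 not called with a median of 0.18 once the constant of 0.65 was taken from CAMKK2, DEPTOR, RRAGC and TSC1, whose adapted values were off the grid. DDIT4 (REDD1), a stress-induced inhibitor of mTORC1, fell most, from 8.61, 8.60 and 8.59 to 5.51, 5.87 and 5.89 (-2.85 ± 0.11, adjusted p = 3.02e-06). Its groups were separated by more than for any of the 41 members. DEPTOR, an inhibitory subunit of mTORC1, rose by 1.39 (adjusted p = 1.45e-05), or 0.74 after subtraction, and RRAGC, a Rag GTPase that brings mTORC1 to the lysosome, by 1.20 (adjusted p = 3.34e-05), or 0.55. SESN1, a leucine sensor that restrains mTORC1, lay on the grid and rose by 0.99 (adjusted p = 0.00321). It was low, at 0.89, 0.84 and 1.11 and then 1.51, 2.21 and 2.07, so the size of its change depends on the added 1. LAMTOR5, a subunit of the Ragulator complex that anchors the Rag GTPases, fell by 0.57 on the log2 scale (adjusted p = 0.00743), and STK11 (LKB1), the main activating kinase of AMPK, fell by 0.41 (adjusted p = 0.0028). Of the AMPK regulatory subunits, all on the grid, PRKAB1 rose by 0.93 (adjusted p = 5.73e-05) and PRKAG2 by 0.51 (adjusted p = 0.000531). PRKAB2 rose by 0.46 with overlap between groups (adjusted p = 0.0405). PRKAG1 did not pass the test (0.17, adjusted p = 0.0859), and PRKAG3 did not pass the filter.

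Of 10 transcription factors known to act on autophagy genes, 8 passed the filter and none was off the grid, 2 rose, 2 fell and 4 did not pass (50% called against 56.9% of all rows), and the median log2 fold change was -0.13. FOXO4 rose from 2.17, 2.23 and 2.20 to 3.15, 3.10 and 3.30 (0.99 ± 0.08, adjusted p = 6.09e-05), and MITF, a MiT/TFE factor, by 0.37 (adjusted p = 0.00319). DDIT3 (CHOP), a stress-response factor, fell from 5.89, 5.89 and 6.06 to 4.79, 4.76 and 4.71 (-1.19 ± 0.07, adjusted p = 1.54e-05). TFEB, the MiT/TFE factor best known for driving autophagy and lysosomal genes, was low in both groups, at 1.66, 1.50 and 1.58 and then 1.26, 1.12 and 1.10, and fell by 0.42 on the log2 scale (adjusted p = 0.00608). The other 4 did not pass, among them TFE3 with a 95% confidence interval of -0.19 to 0.19. TFEB and TFE3 are controlled largely by their place in the cell, which these values do not measure.

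Among 12 partners of beclin 1 and handlers of PI3P, 11 passed the filter. Of these 4 rose, 3 fell and 4 did not pass (63.6% called against 56.9% of all rows), with a median log2 fold change of -0.14. After subtraction the counts and median were the same, beside 56.3% of all rows called. Of the genes on the grid 1 rose, 3 fell and 4 did not pass, with a median of -0.16. MTMR3 and MTMR14, phosphatases that remove PI3P, rose by 1.24 (adjusted p = 0.000206) and 0.98 (adjusted p = 1.82e-05), with adapted values off the grid, and by 0.59 and 0.33 after subtraction. SH3GLB1 (Bif-1), a membrane-bending partner of UVRAG, was also off the grid and rose by 0.98 (adjusted p = 3.82e-05), or 0.33 after subtraction. BCL2L1 (BCL-XL), an antiapoptotic protein that binds beclin 1, lay on the grid and rose by 0.89 (adjusted p = 5.61e-05). MCL1, another antiapoptotic partner of beclin 1, fell by 0.26 on the log2 scale (adjusted p = 0.0091), as did RAB1A, a GTPase of the secretory pathway (adjusted p = 0.0235). TMEM41B, a scramblase that works with VMP1, fell by 0.41 (adjusted p = 0.00808), so that both were lower in adapted cells.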

How the data were processed

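Values of 3 parental and 3 adapted samples were read from 1 table, whose column names carry the group and replicate number of each sample. The authors deposited log2 values without naming the unit; base and added 1 were read from the 6-decimal linear values, and the unit was taken as FPKM from their sums (375342 to 387753 per sample). Sequencing depth is unknown, so errors cover only the spread between replicates. The submitters' processing notes name STAR, Bowtie2 2.1.0, edgeR and hg38, in no stated role. The labels describe RNase R digestion of the RNA, which the study's methods do not mention.

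Rows with a mean log2 value of at least 1 were fitted with limma 3.58.1 (lmFit and eBayes with trend, R 4.3.3), unpaired; the study's count-based method could not be used on log2 values. The fit was tested on simulated data. Rows were called off the grid where a linear value lay over 0.001 of the sixth decimal from it, and constants from 0.01 to 0.99 in steps of 0.01 were tried. Paralog ratios were tested with scipy 1.17.1. Exon overlaps came from GENCODE 29, promoters from RefSeq.

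The members and lists were chosen with earlier results of these data known. All 41 genes could be named, and of related lists up to 3 that rose and 3 that fell most without overlap. BCL2L1, CAMKK2, TSC1, TFE3 and the AMPK regulatory subunits were named after their values were seen. Alternatives were the pseudocount, filters, scalings, centring, eBayes settings, thresholds, a replicate block, each sample left out, and the rows off the grid left out or with constants subtracted. Subtraction in the paralog ratios, their repeats without 1 sample and ratios with nothing added to the FPKM were added after seeing the data.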

Additional observations from a re-analysis of the deposited data

How the results depend on the processing

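Of the 41 genes, 24 kept direction and side of the threshold under every alternative that gave a value for them, among them ULK1, ULK2, WIPI1, WDR45, RPTOR, PRKAA2, ATG14, AMBRA1 and ATG7. The stricter filter gave no value for 7 of the 41 (ATG10, ATG2B, EPG5, PIK3C3, PRKAA2, RAB33B and ULK2), and leaving out rows off the grid gave none for the 15 genes there. Without the rows off the grid 10 members were higher and 6 lower. With constants subtracted PRKAA1, PIK3C3, PIK3R4, ATG4C, ATG12, VAMP8 and RAB33B lost their calls, and the log2 ratio difference of FPKM + 1 turned to 0.30 for ULK1 to ULK2 and to -0.28 for ATG4C to ATG4B. With nothing added as well, it turned to -0.29 for ATG4C to ATG4B and was -0.17 for ULK1 to ULK2, the direction of the deposited values. With 1 sample left out, members higher were 17 to 22, members lower 9 to 11, all rows called 5763 to 8370, related genes called 37 to 51 and the member median 0.16 to 0.22, highest without adapted replicate 1, when WIPI2, WDR45B and RAB7A passed. Without adapted replicate 2 ATG10 and ATG16L1 passed, and ATG10 also under quantile normalization (-0.30, adjusted p = 0.0497). ATG12 also lost its call with no filter (adjusted p = 0.0693), equal sums (0.0647) and eBayes without trend (0.0528). The near-zero change of ATG4D turned to -0.01 under quantile normalization, -0.02 under median centring and -0.04 to 0.05 with 1 sample left out, and that of ATG13 to 0.00 under median centring and -0.01 to 0.05 with 1 sample left out. The stricter filter called 4532 of fewer rows tested. At an adjusted p under 0.01 PIK3R4, ZFYVE1, ATG3, ATG5 and ATG12 lost their calls. With the replicate number as a block, 18 members were higher, 11 lower, 6761 rows were called and ATG5 lost its call (adjusted p = 0.0795). Same-numbered samples did not deviate together (correlations of -0.05, -0.03 and -0.02 across rows), so the numbers were not taken as pairs. The cause of these changes was not tested. Count models were not run, since no counts were used here.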

Other observations

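The 17 tethers and SNAREs of the late endosome and lysosome, which receive the closed autophagosome, all passed the filter and all lay on the 6-decimal grid. Of these 12 rose (70.6%, against 30.7% of all rows), 2 fell (11.8%, against 26.2%) and 3 did not pass limma's test, with a median log2 fold change of 0.30 against 0.028 over all rows. VPS41, a HOPS tether subunit, was at 4.29, 4.32 and 4.28 in the parental samples and 4.89, 5.25 and 5.21 in the adapted samples (0.82 ± 0.10, SE, n = 3 per group; limma adjusted p = 4e-04). The groups were well separated, with adapted replicate 1 the lowest of its group. YKT6, a SNARE that can act beside STX17, rose by 0.48 (adjusted p = 0.000502), and VPS33A, which binds the STX17 complex within HOPS, by 0.46 (adjusted p = 0.00126). VPS16, the HOPS subunit that holds VPS33A, fell by 0.36 on the log2 scale (adjusted p = 0.00762), and RILP, an effector of RAB7A, by 0.24 (adjusted p = 0.0217).

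Of 4 genes that act beside this machinery, 3 rose and 1 fell, where 30.7% of all rows rose and 26.2% fell. NCOA4, the receptor that delivers ferritin to autophagosomes, rose by 1.84 (adjusted p = 3.59e-06), and MAP1LC3B, the LC3 gene whose protein is conjugated to the membrane, by 0.56 (adjusted p = 0.000244). GABARAPL1, of the same ubiquitin-like family, rose by 1.53 (adjusted p = 4.17e-06), with adapted values off the grid, or by 0.88 after subtraction of 0.65. SQSTM1 (p62), a receptor that LC3 binds and that is itself degraded by autophagy, was at 7.21 in each parental sample and at 7.04, 6.79 and 6.90 in the adapted samples (-0.30 ± 0.07, adjusted p = 0.0112).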
